A study of Mus musculus with 12 samples.

Results

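In mouse lung tumors whose mutant oncogene was switched off, 163 array probes, of which 142 carried a gene symbol and belonged to 111 genes, were lower both at 24 h and at 48 h. They were chosen by their values among 21232 probes tested (of 45281 on the array): the mean log2 intensity had to be lower than in tumors with the oncogene on by at least 1, that is 2-fold, at each time, and all 8 values after the switch had to lie below all 4 values before it. Testing required a detection p below 0.05 on 4 or more of the 12 arrays. All 163 members were detected on all 4 arrays with the oncogene on, which this filter and the rule together all but fixed. The 12 samples formed 3 groups of 4: the mutant oncogene on, which stands for time 0 below, 24 h after it was switched off, and 48 h after. All came from microdissected, snap-frozen lung tumors of FVB/SV129 mice aged 19 weeks, and all mice carried the switchable oncogene, so no sample represents normal lung. The promoter that drove the oncogene, the means of switching it and the number of mice are absent from the labels, and p-values therefore measure the spread between samples, which may be technical.

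RNA was measured on Illumina mouse BeadChips, slides of several arrays made of beads that each carry a probe, with 1 array per sample, and the values are background-corrected, quantile-normalised log2 intensities. The share of probes detected was 42.5% to 46.2%, and a value rested on 44 beads (median). Of 2 BeadChips, the first carried all on arrays with replicates 1 and 2 of 48 h; the second carried all 24 h arrays with replicates 3 and 4 of 48 h. The 24 h arrays thus shared no BeadChip with the on arrays, and for that pair time and BeadChip cannot be told apart. With the BeadChip as a fixed term in the linear model, 60 of the 21232 tested probes were called lower at 24 h, against 2590 without it, and 1905 at 48 h, against 2340. All 20 alveolar type 2 markers looked for, the surfactant genes among them, were detected, and their summed linear intensity was 235000 to 240000 with the oncogene on, 217000 to 233000 at 24 h and 165000 to 211000 at 48 h.

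Many oncogenes of lung adenocarcinoma act through the ERK cascade, a chain of kinases that carries growth signals from the cell surface to the nucleus. Active ERK switches on transcription factors and, with them, its own brakes: dual-specificity phosphatases remove the activating phosphates from ERK, and Sprouty and SPRED proteins block the cascade further upstream. Transcripts of several of these brakes are short-lived and are widely used as a readout of ERK activity in tumors.

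Among the 163 members the log2 fold change against the on group had a median of -1.42 at 24 h (from -6.16 to -0.81) and of -1.54 at 48 h (from -5.26 to -0.71). Over all probes tested, the medians were -0.02 and -0.01. In the fitted values 151 of 163 members were at least 2-fold lower at both times and 18 at least 4-fold lower. These contrasts chose the members, so the sizes are descriptions and carry no test. The linear model called all 163 lower at each time, which their choice on the same contrasts all but fixed and which is no test of them. Of all tested probes, 12.2% were called lower at 24 h and 11.0% at 48 h, and 5.21% had 8 off values below the 4 on values. With the BeadChip as a fixed term, 33 of the 163 were called lower at 24 h, with a median log2 fold change of -1.45, and 155 at 48 h, with a median of -1.55, which is the difference within the first BeadChip. The direction at 48 h within that BeadChip was fixed by the rule, which placed every off value below every on value. In bulk tumor RNA, fewer cells of a type and less RNA per cell cannot be told apart.

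The arrays of a group did not carry the fall to the same degree. Set against the mean of the on group, the median member stood at -0.19, 0.20, 0.02 and -0.11 on the 4 on arrays, at -1.58, -1.07, -1.39 and -1.64 at 24 h, and at -1.59, -1.51, -1.23 and -1.76 at 48 h. Replicate 2 had the highest of the 4 values at 24 h in 114 of 163 members, and replicate 3 the highest at 48 h in 99 of 163. Both lay on the second BeadChip, and so did replicate 4 of each time, the lowest in 88 members at 24 h and in 93 at 48 h.

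**Figure D1:**
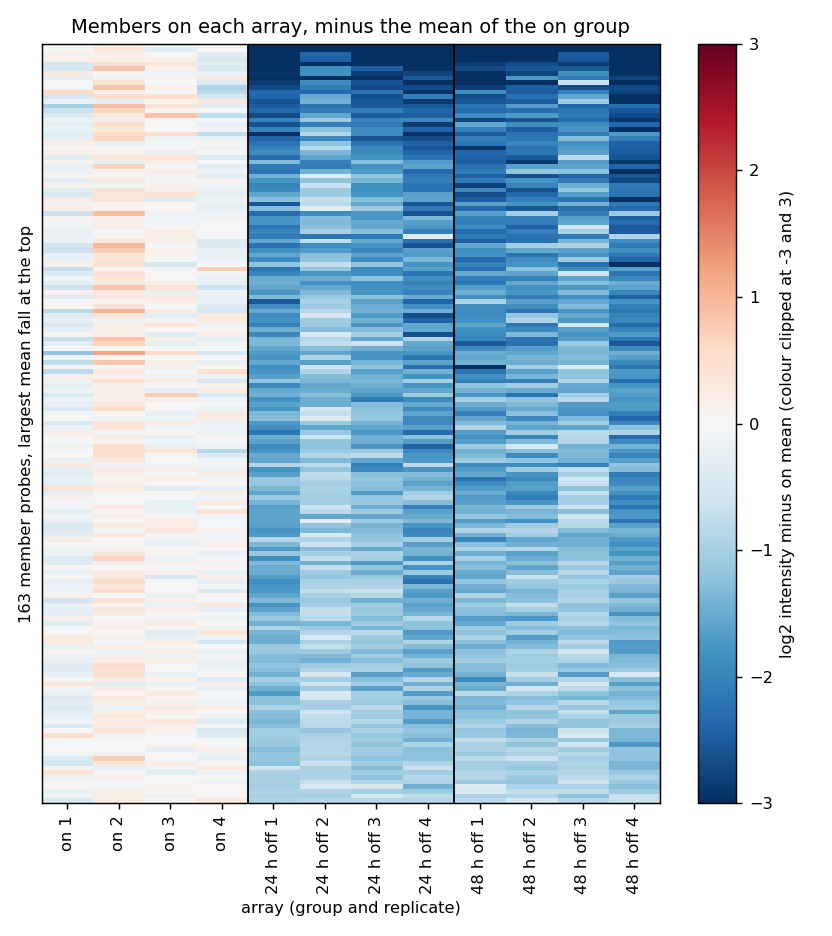
Log2 intensity of the 163 members (rows, largest mean difference at the top) on each of the 12 arrays (columns), minus the mean of the 4 on arrays. Blue is lower and red higher, with colours clipped at -3 and 3. By the choice of members the 8 off arrays are blue throughout, palest on 24 h replicate 2 (median -1.07) and 48 h replicate 3 (median -1.23).

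The largest differences belonged to Prm1, which encodes protamine 1, the protein that packs DNA in sperm heads. Probe ILMN_2687652 read 12.84, 13.11, 12.61 and 12.69 on the log2 scale with the oncogene on, 6.34, 7.04, 6.83 and 6.39 at 24 h, and 7.84, 7.74, 6.82 and 7.80 at 48 h. The off arrays lay far below the on arrays, 71.5-fold on average at 24 h (log2 fold change -6.16, SE 0.23) and 38.4-fold at 48 h (-5.26, SE 0.23). The other Prm1 probe, ILMN_2806549, differed by -6.15 and -5.24. Within the first BeadChip the difference of ILMN_2687652 at 48 h was -5.02. Of other genes of late sperm development, Prm3 and Tnp2 were detected on 0 of 12 arrays and Tnp1 on 1 of 12. Pieces of the mouse protamine 1 gene are a common part of transgene constructs; the labels do not describe the construct in these mice, and this was not tested.

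ERK output genes made up a second group, with 9 member genes that a list of 47 ERK feedback and output genes holds: Dusp4, Dusp6, Spred2, Etv4, Phlda2, Epha2, Ccnd1, Lif and Tnfrsf12a. Dusp6, the phosphatase that acts on ERK in the cytoplasm, had 3 member probes. The brightest of them, ILMN_2925711, read 12.29, 12.76, 12.55 and 12.61 with the oncogene on, 11.42, 11.52, 11.33 and 10.94 at 24 h, and 10.63, 10.87, 11.86 and 10.63 at 48 h. Every off value was below every on value, as the choice of members required, with 48 h replicate 3 the nearest to the on group. The log2 fold changes were -1.25 at 24 h and -1.55 at 48 h (SE 0.24). The other member probes of Dusp6 gave -1.24 and -1.14 at 24 h and -1.84 and -1.66 at 48 h. Dusp4, a nuclear phosphatase of the same family, read 9.18, 9.51, 9.36 and 9.23 with the oncogene on, 7.10, 8.06, 7.77 and 7.60 at 24 h, and 7.44, 6.87, 8.76 and 6.80 at 48 h. Its 48 h values spread widely (SD 0.91, n = 4), with replicate 3 the highest, and the log2 fold changes were -1.69 and -1.86 (SE 0.35). Its second member probe gave -1.20 and -1.74 (SE 0.27). The other tested Dusp4 probe differed by less (-0.61 and -0.67), without full separation of off from on values. Spred2, which restrains the cascade at the membrane, differed by -1.09 at 24 h and -1.07 at 48 h (SE 0.21). Its probe was detected on 2 of 4 arrays at each of these times.

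Etv4, an ETS transcription factor that ERK activity induces, showed the largest difference of the listed ERK genes. It read 7.86, 7.82, 8.18 and 8.40 with the oncogene on, 5.48, 6.64, 5.52 and 5.19 at 24 h, and 5.52, 5.57, 6.96 and 5.02 at 48 h, so that the off groups were 5.12-fold and 4.92-fold lower. The same 2 arrays as before, 24 h replicate 2 and 48 h replicate 3, stood closest to the on group. Ccnd1, which encodes cyclin D1 and carries cells from G1 into S phase, read 10.83, 11.35, 11.21 and 11.36 with the oncogene on, 9.57, 10.43, 9.94 and 9.90 at 24 h, and 9.65, 9.42, 10.20 and 9.07 at 48 h. The member probe differed by -1.23 and -1.61 (SE 0.23), and the other Ccnd1 probes, which missed the threshold at 24 h, by -0.76 and -0.68 at 24 h and by -1.36 and -1.29 at 48 h. Phlda2, a small pleckstrin-homology protein of growth control, differed by -1.95 at 24 h and -1.46 at 48 h (SE 0.29).

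Epha2 is an ephrin receptor tyrosine kinase whose gene is an ERK target. Its probe read 8.34, 8.92, 8.85 and 8.44 with the oncogene on, 6.87, 7.45, 6.72 and 6.89 at 24 h, and 6.96, 7.55, 7.90 and 7.35 at 48 h. The log2 fold changes were -1.65 and -1.20 (SE 0.21). Rasgrf1, an exchange factor for small GTPases, and Nab2, a co-repressor of EGR factors, are members outside the list. Rasgrf1 had 2 member probes at -1.83 and -1.67 at 24 h and -2.31 and -2.09 at 48 h, and Nab2 differed by -1.30 and -1.10 (SE 0.21).

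**Figure D2:**
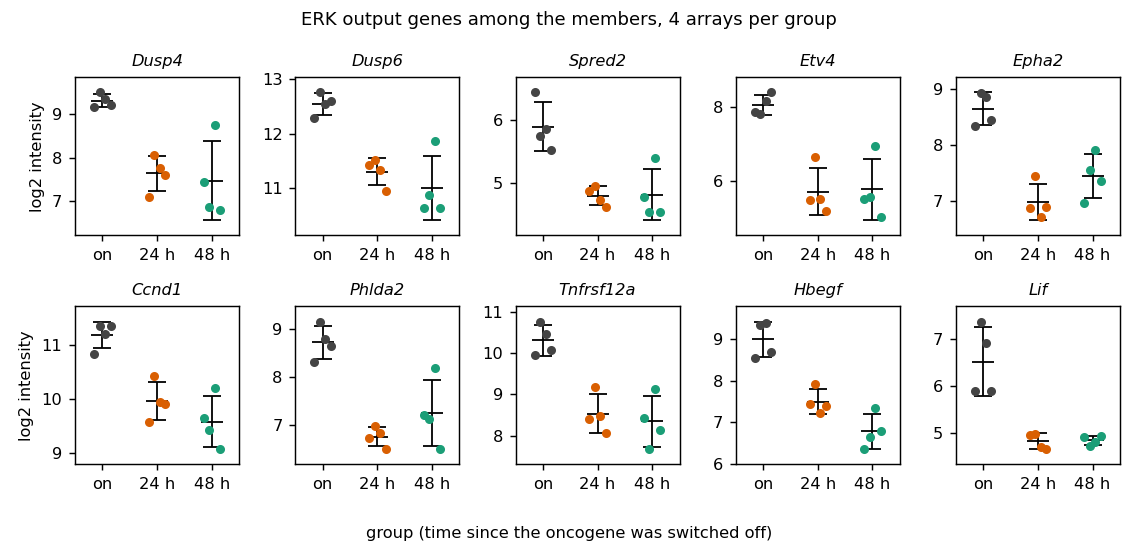
Log2 intensity of 10 members tied to ERK output in the on, 24 h and 48 h groups; points are arrays and bars the mean and SD of 4. Where a gene has several member probes, the brightest is drawn. In each panel all 8 off values lie below the 4 on values, as the choice of members required.

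The list can be read beyond its members. Of its 47 genes, 31 were tested, with the brightest probe standing for each gene. At 24 h 16 were called lower and 1 higher, and at 48 h 16 were called lower and 2 higher (limma with Benjamini-Hochberg adjustment over all probes, adjusted p below 0.05). Of all 11398 genes tested, 12.4% were called lower and 12.9% higher at 24 h, and 11.1% lower and 11.4% higher at 48 h. The 9 member genes account for 9 of the 16 lower genes at each time and were chosen for it; of the other 22, 7 were lower at each time and 4 at both. Those 4 were Spry4, which encodes a Sprouty brake of the cascade, at -1.10 and -0.72 (adjusted p = 0.00248 and 0.0226), Ier3, at -0.84 and -0.95 (adjusted p = 0.0423 and 0.0283), Bhlhe40, at -0.66 and -0.79 (adjusted p = 0.0179 and 0.0086), and Phlda1, at -1.18 and -1.36 (adjusted p = 0.0243 and 0.0145). Others followed a different course: Etv5, an ETS factor like Etv4, stood at -0.05 at 24 h (adjusted p = 0.904) and at -1.34 at 48 h (adjusted p = 0.0019), and the difference between the times itself passed (-1.29, adjusted p = 0.00243). Egr1, an immediate early gene, stood at -1.66 at 24 h and -0.24 at 48 h, and that difference passed too (1.42, adjusted p = 0.0365). Dusp1, a phosphatase that also answers to stress, was higher at both times, by 0.95 and 1.02 (adjusted p = 0.0376 and 0.0305). The list's median was -0.57 at 24 h and -0.67 at 48 h, where the median of all genes was -0.01 and 0.01. It includes the 9 member genes, so part of its distance from all genes was fixed by their choice. Under 75th percentile scaling, cyclic loess and no background correction the count of lower genes, members included, was 15 to 17 at either time. No list was counted with the BeadChip as a fixed term, although for 24 h against on time and BeadChip cannot be told apart.

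Secreted and membrane-bound signals formed the next group, 7 genes. Hbegf, a ligand of the EGF receptor, read 8.55, 9.35, 9.39 and 8.70 with the oncogene on, 7.44, 7.93, 7.22 and 7.40 at 24 h, and 6.35, 6.64, 7.35 and 6.79 at 48 h. It was the only member among 8 tested genes of the EGF family list; Epgn, which encodes another ligand, fell at 48 h (-2.06, adjusted p = 0.00158) and stood at -0.87 at 24 h (adjusted p = 0.0749), while Egfr, the receptor, rose at 24 h by 0.65 (adjusted p = 0.0412) and at 48 h by 1.04 (adjusted p = 0.00494). Cxcl1, a chemokine that draws neutrophils, read 8.96, 9.11, 9.31 and 9.51 with the oncogene on, 6.24, 6.16, 6.15 and 6.69 at 24 h, and 6.06, 7.50, 7.11 and 6.45 at 48 h. It was 7.54-fold and 5.45-fold lower at the 2 times. Tnfsf9, the ligand of the T-cell co-stimulator 4-1BB, read 8.38, 8.86, 8.41 and 7.99 with the oncogene on, 5.54, 6.55, 5.81 and 5.10 at 24 h, and 5.28, 5.18, 7.79 and 4.83 at 48 h. Replicate 3 at 48 h came close to the lowest on value, and the log2 fold changes were -2.66 and -2.64 with a wide error (SE 0.54). Il24, a cytokine of the interleukin-10 family, read 6.34, 7.62, 7.09 and 6.94 with the oncogene on, 4.64, 4.92, 4.93 and 4.63 at 24 h, and 4.66, 4.73, 4.83 and 4.46 at 48 h. It was detected on 2 of 4 arrays at 24 h and 1 of 4 at 48 h.

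Lif, an interleukin-6 family cytokine, had 2 member probes. ILMN_3137291 read 5.90, 7.38, 6.92 and 5.89 with the oncogene on, 4.95, 4.98, 4.69 and 4.66 at 24 h, and 4.90, 4.71, 4.80 and 4.94 at 48 h. The on arrays themselves spread over more than 1 log2 unit, while the off arrays were close together. ILMN_3137287 was undetected on all 8 off arrays, which gives a bound: it was at least 2.42-fold lower at each time. This bound sets the mean of the on arrays against the lowest detected signal of the off arrays. Lrg1, a secreted leucine-rich glycoprotein of inflammation and vessel growth, differed by -1.20 and -1.80 (SE 0.21), and Pglyrp1, which binds bacterial peptidoglycan, by -1.64 and -1.33 (SE 0.17) on 1 probe and -1.30 and -1.40 (SE 0.26) on the other. Of the 27 tested genes of the cytokine and chemokine list, Cxcl1 and Lif were the only member genes. Among the other 25, 2 were called lower and 6 higher at 24 h, and 3 lower and 1 higher at 48 h.

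Promoters are shown for Epha2 and Lif because they are the members of the ERK list whose promoter held a cyclic-AMP response element (CRE) or an AP-1 site, the element bound by FOS and JUN proteins. The sequences run 5′ to 3′ from 250 bases before to 50 bases after the transcription start, on the plus strand of GRCm38.p6 (RefSeq), at chr4:141300971-141301270 for Epha2 and chr11:4257318-4257617 for Lif. Capitals mark the CRE TGACGTCA in Epha2, which begins 33 bases before the start, and in Lif the AP-1 match TGACTCA, which begins 228 bases before the start, and the NRF2 core match GCCCAGTCA, which begins 241 bases before it.
Epha2: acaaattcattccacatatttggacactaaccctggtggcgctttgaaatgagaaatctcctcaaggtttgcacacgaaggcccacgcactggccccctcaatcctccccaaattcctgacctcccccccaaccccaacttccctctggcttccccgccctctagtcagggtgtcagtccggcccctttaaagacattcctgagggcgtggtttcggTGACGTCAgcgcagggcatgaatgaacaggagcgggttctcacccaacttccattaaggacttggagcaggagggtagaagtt
Lif: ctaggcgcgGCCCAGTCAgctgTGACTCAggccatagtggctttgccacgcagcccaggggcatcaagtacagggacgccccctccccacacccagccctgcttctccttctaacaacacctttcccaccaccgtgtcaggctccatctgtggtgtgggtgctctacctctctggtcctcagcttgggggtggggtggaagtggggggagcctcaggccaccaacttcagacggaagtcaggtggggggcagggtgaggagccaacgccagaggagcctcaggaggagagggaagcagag

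The promoter table held 113 promoters of 88 member genes, 6 of the 9 ERK list genes among them. On either strand, the AP-1 site TGANTCA was found in 15 of 113 (13.3%), against 7.81% of all 32851 promoters in the table. The shares were 2.65% against 1.79% for the CRE TGACGTCA, 4.42% against 3.89% for the ETS site CCGGAAGT, 0.885% against 0.813% for the E2F sites TTTCGCGC and TTTGGCGC, 6.19% against 7.15% for the E-box CACGTG, 10.6% against 12.4% for the NRF2 core TGACNNNGC and 1.77% against 1.63% for the CArG box of serum response factor. Promoters that hold the AP-1 site include those of Ivl, Dmkn, Ankrd22 and Lif. A match is a run of letters and not a measured binding site; the letters of the AP-1, CRE and NRF2 motifs overlap in part.

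Receptors made up 7 genes. Sstr2, the somatostatin receptor through which neuroendocrine secretion is damped, read 9.72, 9.34, 9.14 and 8.34 with the oncogene on, 6.77, 6.78, 6.95 and 6.17 at 24 h, and 7.28, 6.63, 7.07 and 6.35 at 48 h. It was 5.52-fold and 4.93-fold lower. Tnfrsf12a, the receptor for the cytokine TWEAK and a gene of the ERK list, read 9.95, 10.76, 10.47 and 10.07 with the oncogene on, 8.40, 9.19, 8.48 and 8.06 at 24 h, and 8.43, 7.68, 9.14 and 8.15 at 48 h. Itga7, a laminin-binding integrin chain, differed by -1.61 and -2.19 (SE 0.22). Il18rap, a chain of the interleukin-18 receptor, differed by -1.48 and -1.54 on its member probe (SE 0.13), while its other tested probe stood at 0.53 and 0.07, so the probes of this gene disagree. Prokr1, C5ar2 and Tnfrsf22 lay between -1.18 and -1.48 at 24 h and between -1.45 and -2.0 at 48 h.

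Keratins and proteins of stratified or mucosal epithelium gave 10 genes and the second largest difference. Ivl encodes involucrin, a precursor of the cornified envelope of keratinocytes. Its brighter probe, ILMN_1233243, read 10.13, 10.21, 10.05 and 9.64 with the oncogene on, 5.22, 7.64, 6.20 and 5.77 at 24 h, and 5.33, 4.59, 7.48 and 4.56 at 48 h. It was 13.9-fold lower at 24 h and 22.9-fold lower at 48 h, with off arrays that spread over more than 2 log2 units (SD 1.03 at 24 h and 1.37 at 48 h, n = 4). At 48 h it was detected on 2 of 4 arrays, so the fold there includes undetected values. The other Ivl probe differed by -3.50 and -3.86 (SE 0.42) and was detected on 3 of 4 arrays at 24 h and 1 of 4 at 48 h. Krt19, a keratin of simple epithelium, read 9.77, 10.17, 10.03 and 10.09 with the oncogene on, 8.54, 8.72, 8.72 and 8.46 at 24 h, and 8.19, 8.11, 8.37 and 8.02 at 48 h. Krt8 differed by -1.13 and -1.11 (SE 0.16) and Krt7 by -1.14 and -1.09 (SE 0.15), and Krt18, the partner of keratin 8 and no member, by -1.16 at 24 h and -0.97 at 48 h (limma adjusted p = 0.00165 and 0.00468).

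The remaining epithelial members were Dmkn, Lad1, Muc4, Muc20, Ceacam1 and Ceacam2. Ceacam1, a cell-adhesion molecule of the carcinoembryonic antigen family, had 3 member probes between -1.55 and -1.90 at 24 h and between -1.56 and -1.97 at 48 h. Ceacam1 and Ceacam2 are close paralogs, so a share of the signal on either may come from the other. In the list of 21 tested genes of epithelial junctions and keratins, 8 were called lower and 0 higher at 24 h, and 5 lower and 5 higher at 48 h. These counts include the members Krt7, Krt8 and Krt19. Of the other 18, 5 were called lower and 0 higher at 24 h, and 2 lower and 5 higher at 48 h. The adhesion gene Cdh1 stood at -0.13 and -0.03 (limma adjusted p = 0.314 and 0.814), while Tjp1, a tight-junction gene, rose at 48 h by 0.85 (adjusted p = 0.00333).

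Proteases formed a group of 8 genes. Pcsk6, a proprotein convertase that activates growth factors and matrix enzymes, read 11.40, 11.78, 11.53 and 11.55 with the oncogene on, 9.55, 10.47, 9.62 and 9.64 at 24 h, and 8.83, 8.98, 9.25 and 8.67 at 48 h. All off values were below the on values, as the choice of members required, and the 48 h values were also all below the 24 h values. Prss22, a tryptase of airway epithelium, read 5.89, 7.87, 7.32 and 6.57 with the oncogene on and was undetected on all 4 arrays at 24 h, which gives at least 4.42-fold lower. It was detected on 1 of 4 arrays at 48 h. Plau, the urokinase plasminogen activator, differed by -1.20 and -1.79 (SE 0.29), and Klk14, Cela1, Prss35, Adam28 and Dpp9 lay between -1.08 and -1.72 at 24 h and between -1.07 and -1.76 at 48 h. Plau was the only member among 34 tested genes of the list of extracellular proteolysis and matrix; of the other 33, 3 were called lower and 8 higher at 24 h, and 5 lower and 3 higher at 48 h.

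Enzymes that build, modify or trim glycans in the Golgi, together with a Golgi membrane protein, gave 7 genes. Manea, an endomannosidase that trims N-glycans, read 11.29, 12.32, 12.18 and 11.50 with the oncogene on, 8.19, 8.52, 8.21 and 8.28 at 24 h, and 9.0, 9.14, 8.99 and 8.38 at 48 h. It was 11.5-fold lower at 24 h and 7.69-fold lower at 48 h, with off arrays that varied less than the on arrays at both times. B3gnt7, which adds N-acetylglucosamine to growing glycan chains, read 8.80, 9.84, 9.81 and 8.78 with the oncogene on, 6.94, 7.79, 6.68 and 7.24 at 24 h, and 6.65, 7.08, 7.75 and 5.57 at 48 h. Man2a2, an alpha-mannosidase, had 3 member probes between -1.38 and -1.53 at 24 h and between -1.08 and -1.34 at 48 h, and its other tested probe differed by less (-0.68 and -0.76). Fut2, a fucosyltransferase of mucosal blood-group antigens, Hs3st1, a heparan sulfate sulfotransferase, Fam20b, a xylose kinase, and the Golgi membrane protein gene Golm1 lay between -1.06 and -1.68 at 24 h and between -1.19 and -1.91 at 48 h on their member probes. The other tested Fam20b probe stood at -0.15 and -0.03, so the probes of this gene disagree.

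Transporters and channels numbered 11 genes. Slc2a1, which encodes the glucose transporter GLUT1, read 9.47, 9.81, 9.95 and 9.20 with the oncogene on, 8.25, 8.83, 8.76 and 7.93 at 24 h, and 8.54, 8.73, 8.42 and 8.50 at 48 h. It differed by -1.16 and -1.06 (SE 0.21) and was the only member among 15 tested glycolysis genes, 10 of which were called lower and 0 higher at each time. Of the other 14, 9 were called lower and 0 higher at each time. Ldha, which makes lactate, stood at -0.93 and -1.07 (adjusted p = 0.000334 and 0.000154), and Pfkl, a phosphofructokinase, at -0.96 and -0.90 (adjusted p = 0.000821 and 0.00126). Over all 15 glycolysis genes, the counts of lower genes were 8 to 10 at 24 h and 10 to 11 at 48 h under the other scalings. Housekeeping genes moved too: of 11 tested, 5 were lower and 1 higher at 24 h, and 6 lower and 0 higher at 48 h. Aqp3, a water and glycerol channel, differed by -2.13 and -1.40 (SE 0.34), Slc23a3 by -2.41 and -1.92 (SE 0.22), and Slc13a2, a citrate and dicarboxylate carrier, by -1.91 at both times (SE 0.36). Slc4a8, a sodium-driven bicarbonate exchanger, had 4 member probes between -0.81 and -1.48 at 24 h and between -0.93 and -1.22 at 48 h.

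Oxygen sensing was represented by Egln3, a prolyl hydroxylase that marks hypoxia-inducible factor for destruction and is itself induced by it. It read 7.40, 8.32, 8.23 and 6.96 with the oncogene on, 4.73, 6.86, 5.81 and 4.77 at 24 h, and 5.20, 5.51, 5.66 and 6.03 at 48 h. Replicate 2 at 24 h lay just below the lowest on array. The other tested Egln3 probe differed by less (-0.29 and -0.57). Ankrd37, another hypoxia-induced gene, differed by -1.48 and -1.44 (SE 0.28). These were the members among 16 tested genes of the hypoxia and angiogenesis list. Of the other 14, 2 were called lower and 2 higher at 24 h, and 3 lower and 2 higher at 48 h; Vegfa, the endothelial growth factor, stood at 0.05 at 24 h and rose at 48 h by 0.65 (limma adjusted p = 0.0028).

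Another 10 member genes encode metabolic enzymes or redox proteins. Ppp1r3b, which brings protein phosphatase 1 to glycogen, read 7.58, 8.25, 8.82 and 7.24 with the oncogene on, 5.29, 6.42, 5.49 and 5.50 at 24 h, and 6.11, 6.27, 5.87 and 5.27 at 48 h. Txn1, the redox protein thioredoxin, differed by -1.51 and -1.90 (SE 0.16). Ak4, an adenylate kinase of mitochondria, differed by -1.88 and -1.46 (SE 0.30), and Ptges, which makes prostaglandin E2, by -1.23 at both times (SE 0.20). Arg2, a mitochondrial arginase, had the largest SD of these at 48 h (1.18, n = 4): it read 9.88, 9.81, 9.61 and 9.85 with the oncogene on, 7.94, 9.20, 8.59 and 7.53 at 24 h, and 6.81, 8.79, 9.44 and 7.60 at 48 h.

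The long non-coding RNAs Rian and Meg3, which are read from the maternal copy of the imprinted Dlk1-Dio3 cluster, were both members. Rian read 7.03, 6.61, 6.81 and 6.93 with the oncogene on, 4.63, 5.62, 4.59 and 4.41 at 24 h, and 4.62, 4.85, 5.02 and 4.41 at 48 h. It was detected on 1 of 4 arrays at 24 h and 2 of 4 at 48 h. Meg3 differed by -1.54 at both times on 1 probe (SE 0.16) and was at least 1.59-fold lower at both on another, which was undetected on all 8 off arrays. Dlk1, a protein-coding gene of the cluster read from the paternal copy, was detected on all 12 arrays and stood at -0.50 and -0.70 at 24 h on its 2 probes (limma adjusted p = 0.634 and 0.535) and at -2.27 and -2.40 at 48 h (adjusted p = 0.0357 and 0.0406). Of other paternally read genes of the cluster, Rtl1 was undetected on all arrays, and Dio3 was detected on 1 of 12.

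Transcription factors, 3 in number, and 2 genes of cell survival or death complete the named roles. Sp5, a zinc-finger factor that WNT signals induce, read 9.60, 9.27, 9.67 and 9.42 with the oncogene on, 8.17, 7.47, 8.22 and 7.82 at 24 h, and 7.01, 6.63, 7.81 and 6.60 at 48 h. Hhex, a homeobox factor of foregut development, differed by -1.04 and -1.73 (SE 0.19), and Id2, an inhibitor of helix-loop-helix factors, by -1.38 and -1.66 (SE 0.29). The other tested Id2 probes stood at -0.37 and -0.68 at 24 h and at -0.90 and -1.60 at 48 h. Bcl2l1, which encodes the anti-apoptotic BCL-XL, had 2 member probes at -1.03 and -1.28 at 24 h and -1.28 and -1.02 at 48 h (SE 0.21 each). In the list of 17 tested apoptosis and survival genes it was the only one called lower at 24 h, against 2 called higher; at 48 h 3 were lower and 5 higher, among them Bik (1.03, adjusted p = 0.0023), Bbc3 (0.78, adjusted p = 0.00486) and Bcl2l11 (0.64, adjusted p = 0.00492), which encode pro-apoptotic BH3-only proteins. The remaining higher genes at 48 h were Bmf (0.41, limma adjusted p = 0.0302) and the anti-apoptotic Mcl1 (0.68, adjusted p = 0.00257). Beside Bcl2l1, the lower genes were the pro-apoptotic Bad (-0.31, adjusted p = 0.0375) and Casp8 (-0.36, adjusted p = 0.025). Gsdme, whose product opens membrane pores when caspase-3 cleaves it, differed by -1.58 and -1.96 (SE 0.31).

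**Figure D3:**
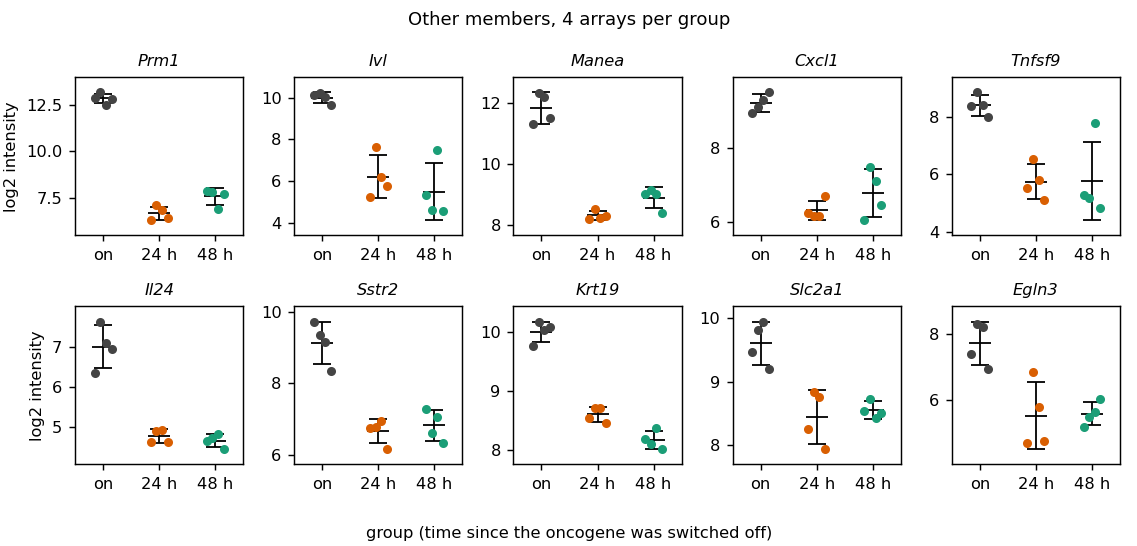
Log2 intensity of 10 further members in the on, 24 h and 48 h groups; points are arrays and bars the mean and SD of 4. Prm1 and Manea were lower at 24 h than at 48 h by their means, while 48 h replicate 3 stands high for Ivl and Tnfsf9 (7.48 and 7.79).

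The other 32 named genes, on 41 probes, have no shared role and lay between -0.86 and -2.39 at 24 h and between -0.71 and -2.43 at 48 h. Ly6g6c, a membrane-anchored protein of the Ly6 family, read 7.38, 8.33, 7.53 and 7.48 with the oncogene on, 5.31, 5.75, 5.08 and 5.01 at 24 h, and 5.63, 5.50, 6.37 and 5.62 at 48 h. Celf4, an RNA-binding protein, differed by -1.97 and -2.08 (SE 0.36) on ILMN_2560009, which was detected on 1 of 4 arrays at 48 h. Its other member probe gave -1.60 and -1.64. The other tested Celf4 probes differed by less, by -0.44 and -0.15 at 24 h and by -0.47 and -0.58 at 48 h. Spata31d1a differed by -1.89 and -2.16 (SE 0.22). Abhd2, a lipid hydrolase, and Smurf1, a ubiquitin ligase that acts on SMAD proteins, each had 3 member probes. The 21 unnamed probes lay between -0.85 and -2.61 at 24 h and between -0.76 and -2.81 at 48 h, with ILMN_2600190 (-2.61 and -2.78), ILMN_1258966 (-2.59 and -2.81) and ILMN_2619136 (-2.54 and -2.66) the furthest from 0.

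Probes that the rule did not pick give another reading of the same genes, on the same samples. For 33 member genes, 48 other probes were tested, of which 46 were lower at both times, where 33.2% of all tested probes were. Their median log2 fold change was -0.67 at 24 h and -0.75 at 48 h, smaller than among the members, and 28 of 48 were below -0.5 at both. Those not lower at both times were a probe of Il18rap and one of Kif23, which stood at 0.48 and -0.35. The member probe of Kif23 stood at -1.30 and -2.05 and its remaining probe at -0.95 and -1.89. Some of the 46 were lower by little, such as the Fam20b probe (-0.15 and -0.03). Another 47 probes of member genes were not detected often enough to be tested, and 24 genes had more than 1 member probe, 4 at most.

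Whether the members went on falling was asked by comparing 48 h with 24 h, the 1 contrast that the choice of members did not use directly; a choice of probes low at both times still favours those with a small difference between them. The median difference was -0.06 (from -1.22 to 0.92), and 92 of 163 members had the lower mean at 48 h. By limma over all probes, 19 of 163 members (11.7%) differed between the times, 15 lower and 4 higher at 48 h, where 26.7% of all tested probes differed, 13.8% lower and 12.9% higher. Without 48 h replicate 3 the count of lower members was 29, and without 48 h replicate 2 or 24 h replicate 2 it was 9. The higher count was 9 without 48 h replicate 4, 7 without 24 h replicate 2 and 2 without 48 h replicate 2 or any of 24 h replicates 1, 3 and 4. With the BeadChip as a fixed term, which leaves the comparison to the second BeadChip, 2 members were lower and 0 higher, both probes of Ankrd22; from the arrays of the second BeadChip alone no member passed in either direction.

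The members lower at 48 h than at 24 h included Ankrd22, which read 5.03, 5.48, 5.34 and 4.56 at 48 h, against 6.27, 6.85, 6.26 and 5.94 at 24 h, on probe ILMN_2965414. The groups did not overlap, and the difference was -1.22 (SE 0.23, limma adjusted p = 0.0036), or -1.38 within the second BeadChip (adjusted p = 0.0652). Dmkn, which encodes the secreted epidermal protein dermokine, read 10.04, 9.85, 10.12 and 9.90 at 48 h, against 11.08, 12.05, 11.28 and 10.37 at 24 h, on probe ILMN_3105563. The difference was -1.22 (SE 0.26, adjusted p = 0.00644), or -1.18 within the second BeadChip (adjusted p = 0.156), while another Dmkn probe, no member, stood at -0.26 at 24 h and -0.02 at 48 h against the on group. Pcsk6 differed by -0.89 (SE 0.19, adjusted p = 0.00691), with -0.86 within the second BeadChip. Hdc, the enzyme that makes histamine, read 11.34, 11.75, 11.90 and 11.58 at 48 h, against 12.42, 12.40, 12.15 and 12.26 at 24 h, a difference of -0.67 (SE 0.13, adjusted p = 0.00431), with -0.57 within the second BeadChip.

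Differences in the same direction were also found for Sp5, Kif23, Hbegf, Hhex, Krt19, Abhd2, Smurf1 and unnamed probe ILMN_1248075. For Smurf1 only ILMN_2772256 was called, and the other member probes differed by -0.19 and -0.09 (limma adjusted p = 0.539 and 0.602). The Abhd2 member probe that was not called differed by -0.22 (adjusted p = 0.21). Kif23, a kinesin of the spindle midzone that cells need to divide, differed by -0.76 (SE 0.19, adjusted p = 0.0131), with -0.85 within the second BeadChip. In the mitosis list, of 19 tested genes 14 had a lower level at 48 h than at 24 h by the test and 0 a higher one; against the on group, 7 were higher and 0 lower at 24 h, and 7 lower and 0 higher at 48 h. Hbegf differed by -0.72 (SE 0.24, adjusted p = 0.0468), with -0.43 within the second BeadChip, and its adjusted p ranged from 0.0148 to 0.367 over the alternatives tried. Sp5 differed by -0.91 (SE 0.25, adjusted p = 0.0191), with -0.71 within the second BeadChip.

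Prm1 was among the 4 members higher at 48 h than at 24 h, with differences of 0.90 and 0.92 on its probes (SE 0.23, limma adjusted p = 0.0146 and 0.0131). Within the second BeadChip they were 0.66 and 0.65 (adjusted p = 0.271 and 0.248). On ILMN_2687652, 48 h replicates 1 and 2, on the first BeadChip, read 7.84 and 7.74, and replicates 3 and 4, on the second, read 6.82 and 7.80. Inava, whose product steadies epithelial junctions, read 6.36, 6.18, 6.54 and 5.61 at 48 h, against 5.58, 5.88, 5.27 and 5.47 at 24 h. The groups overlapped by 1 array and the difference was 0.62 (SE 0.19, adjusted p = 0.0295). The fourth was unnamed probe ILMN_1239397, at 0.73 (SE 0.25, adjusted p = 0.0453).

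**Figure D4:**
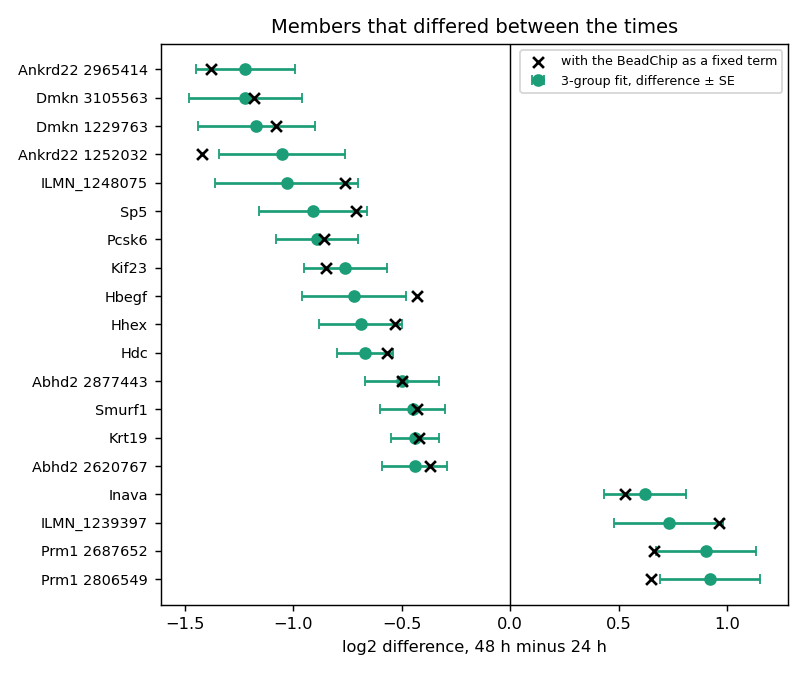
Log2 difference, 48 h minus 24 h, of the 19 members called between the times (points with SE bars, 4 arrays per group) and with the BeadChip as a fixed term (crosses). Numbers after a symbol tell apart the probes of one gene; 15 members lie left of 0 and 4 right of it, and every cross is on the same side as its point.

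Some gene lists without a member gene changed at the same times. Of 19 tested genes of ribosome biogenesis and MYC targets, 13 were called lower at 24 h and 12 at 48 h, 9 at both, and 0 higher at either; Srm, which makes spermidine, stood at -0.67 and -1.09 (limma adjusted p = 0.00333 and 0.00025). The sterol and fatty acid synthesis list had 1 lower and 3 higher of 21 at 24 h, and 13 lower and 0 higher at 48 h. Of 16 tested AP-1 and immediate early genes 5 were lower and 0 higher at 24 h, and 2 lower and 4 higher at 48 h; Junb stood at -1.23 and -0.38 (adjusted p = 0.000342 and 0.0961). All lists were drawn up with earlier results of these data known.

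**Figure D5:**
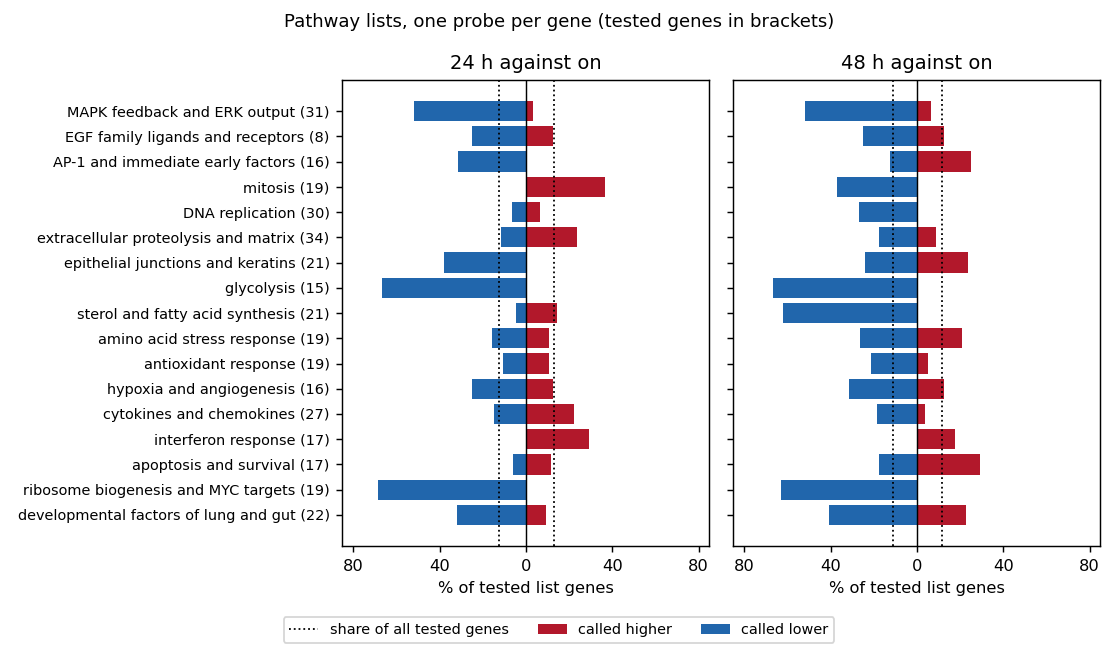
Share of tested genes in each pathway list called higher (red, right) or lower (blue, left) at 24 h and at 48 h against the on group, with 1 probe per gene; dotted lines mark the shares of all 11398 tested genes (12.4% lower and 12.9% higher at 24 h, 11.1% and 11.4% at 48 h). Lists that hold members include those members' own falls.

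Markers of other cell types also changed at these times. Of 13 tested alveolar type 1 markers 8 were higher at 24 h and 7 at 48 h, with summed linear intensities of 31100 to 35400 with the oncogene on, 41100 to 53300 at 24 h and 42100 to 48100 at 48 h. Of 13 tested endothelial markers 12 were higher at 24 h, and 9 were higher and 1 lower at 48 h. Their sums were 5980 to 8070 with the oncogene on, 11400 to 16600 at 24 h and 10200 to 10500 at 48 h. Kdr was undetected throughout. Of 14 tested macrophage markers 8 were higher at 24 h and 0 at 48 h, when 2 were lower; the sums were 5350 to 7890 with the oncogene on, 11400 to 14400 at 24 h and 2120 to 6740 at 48 h, and Siglecf and Fabp4 were undetected throughout. Fibroblast and smooth muscle markers had 5 of 13 higher at 24 h and 2 at 48 h, with sums of 6360 to 9120 with the oncogene on, 13200 to 23500 at 24 h and 8920 to 17800 at 48 h, and Cnn1 undetected throughout. Of 10 tested neutrophil markers 4 rose at 24 h and 3 fell at 48 h, with sums of 13900 to 16700 with the oncogene on, 7480 to 13900 at 24 h and 2980 to 9600 at 48 h. Of 4 tested erythroid markers 3 were higher at 24 h and 0 at 48 h, with sums of 1720 to 2990 with the oncogene on, 5250 to 12500 at 24 h and 725 to 3900 at 48 h. Club cell markers had 0 of 9 called at 24 h and 1 higher at 48 h, with sums of 38400 to 48100 with the oncogene on, 35800 to 44500 at 24 h and 53400 to 74300 at 48 h, and ciliated cell markers had 0 of 10 called at 24 h and 2 higher at 48 h. Of the alveolar type 2 markers, 2 were lower and 3 higher at 24 h, and 7 lower and 2 higher at 48 h. No list of cell type markers, alveolar type 2 included, held a member gene. The part of these cell types in the fall was not tested.

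At the threshold, the members just inside were the unnamed probe ILMN_2915835, with differences of -1.0 at 24 h and -1.002 at 48 h on the scale the rule used, Stk39 (-1.053 and -1.005) and Hdc (-1.005 and -1.673). Just outside were Itga6 (-1.722 and -0.985), Epdr1 (-1.088 and -0.983) and a second probe of Hdc (-0.98 and -2.173).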

How the data were processed

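RNA of 12 lung tumor samples, 4 per group, was hybridised to an Illumina mouse BeadChip; per the labels' protocols it was extracted with Trizol and RNeasy and made into biotinylated cRNA with the Ambion TotalPrep kit. The deposited scanner table gives, per the file headers, each probe's mean bead intensity, its standard error, its number of beads (a plain whole number) and a detection p-value. A second table deposited by the authors is on a log2 scale that was taken of log values: 2 raised to each value behaves as a log2 intensity with matching quantiles between arrays. The rule for the members used that power of 2; the labels name no normalisation for it. Another 24 columns of the scanner table, the number of arrays and an array SD per sample, were not used.

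Intensities were background-corrected with detection p-values (limma neqc, offset 16), quantile-normalised and taken to log2 with limma 3.58.1 in R 4.3.3. Levels, SDs and log2 fold changes refer to these values. A fit of 3 groups (9 residual degrees of freedom) over 21232 probes gave Benjamini-Hochberg adjusted p-values, called below 0.05; the fit was tested on simulated data. Replicate numbers were not treated as pairs of samples. Probe names came from GEO's platform annotation: 34885 of 45281 probes had 1 symbol, 18 several and 10378 none, and 34807 matched RefSeq. A list gene was represented by its probe of highest mean. Old transcript names and close paralogs may misplace a probe. The number of arrays limits the precision.

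The members and lists were chosen with earlier results of these data known, and roles were given after the members were seen. Named were the 25 members with the lowest mean fold change, members in a list, at most the 10 largest differences in each direction between 48 h and 24 h, threshold neighbours and other probes of these genes; further members, and the sperm and Dlk1-Dio3 genes, were chosen after their values were seen. The name of the oncogene is not reported here. Alternatives covered background correction, scaling, filters, BeadChip, replicate block, array weights, the rule's threshold and leaving out each array.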

Additional observations from a re-analysis of the deposited data

Results flagged for a closer look

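In 17 of 171 groups of 4 arrays looked at among the named members, 1 array stood apart from the other 3 by Dixon's criterion, which chance alone meets in about 1 group in 20. Replicate 3 at 48 h was that array for Prm1, at 6.82 on ILMN_2687652 where the others read 7.74 to 7.84, and at 6.93 on ILMN_2806549 where the others read 7.75 to 7.90. It was the high one for Ivl probe ILMN_2733290 (6.17, others 4.36 to 4.50), Tnfsf9 (7.79, others 4.83 to 5.28), Ly6g6c (6.37, others 5.50 to 5.63), Celf4 probe ILMN_2560009 (6.34, others 4.53 to 4.70) and Dusp6 probes ILMN_2701321 (6.05, others 4.64 to 4.87) and ILMN_1248537 (9.17, others 7.49 to 7.75). Replicate 2 at 24 h stood high for Pcsk6 (10.47, others 9.55 to 9.64), Prss22 (4.71, others 4.36 to 4.41, all undetected), ILMN_1258966 (5.93, others 4.80 to 4.96) and ILMN_2619136 (5.43, others 4.82 to 4.84). Replicate 4 at 24 h stood high for Cxcl1 (6.69, others 6.15 to 6.24). Among the on arrays, replicate 4 stood low for Ivl probe ILMN_2733290 (8.24, others 8.85 to 8.91) and Dmkn probes ILMN_3105563 (12.18, others 12.60) and ILMN_1229763 (12.28, others 12.66 to 12.73), and replicate 2 stood high for Ly6g6c (8.33, others 7.38 to 7.53).

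The effect at 48 h differed from that at 24 h, by the limma test of the difference itself, for 19 member probes. The log2 difference, 48 h minus 24 h, was positive for the Prm1 probes (0.90 and 0.92), ILMN_1239397 (0.73) and Inava (0.62). It was negative for the Dmkn probes (-1.22 and -1.17), the Ankrd22 probes (-1.22 and -1.05), ILMN_1248075 (-1.03), Sp5 (-0.91), Pcsk6 (-0.89), Kif23 (-0.76), Hbegf (-0.72), Hhex (-0.69), Hdc (-0.67), 2 Abhd2 probes (-0.50 and -0.44), Smurf1 probe ILMN_2772256 (-0.45) and Krt19 (-0.44).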

How the results depend on the processing

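The number of members moved with the threshold of the rule, to 262 at -0.75 and 58 at -1.5, and was 148 to 193 with 1 array left out; the other settings of the rule gave 151 to 209. The count of members lower at 48 h than at 24 h (15) became 8 with no filter on dim probes, 2 with the BeadChip as a fixed term and 0 within the second BeadChip, and the count of higher ones (4) became 2, 0 and 0 under the same settings and 8 with array weights. The comparison within the second BeadChip uses fewer arrays; the cause of the other changes was not tested. With 1 array left out the lower count ranged from 9 to 29 and the higher count from 2 to 9. Of the differences between the times for named members, 310 kept their call and 80 lost it over the alternatives, and none turned its sign; against the on group, 29 values at 24 h and 28 at 48 h moved by more than the SD between replicates. Same-numbered arrays of different groups had residual correlations of -0.2947 to 0.2153, against -0.3103 to 0.3075 for other pairs. These correlations showed no pairing by number, but so few arrays cannot exclude one. Fitting the number as a replicate block gave 16 members lower and 6 higher at 48 h. With detection p below 0.05 as the limit, 4 members were undetected on all 8 off arrays, and their fold changes there are bounds.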
